A study of Mus musculus with 12 samples.

Results

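Many protein-coding genes also make transcripts that the annotation lists as noncoding, and these isoforms were measured in MTEC1 cells treated with PAMK and in untreated cells. They were taken as the rows of the deposited lncRNA table that carry an Ensembl mouse transcript name and a gene name that is also present in the mRNA table. The rule used no expression value. It found 21511 of the 42870 lncRNA transcripts (50.2%), from 9163 of the 21771 genes in the mRNA table (42.1%). A gene had a median of 2 such isoforms and at most 16, in Cspp1, a centrosome and cilium gene. There were 3914 genes with 1 isoform and 1002 with 5 or more.

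An annotated noncoding isoform of a coding gene is typically a transcript that keeps an intron, lacks the start of the reading frame, or ends early. Splicing factors and ribosomal protein genes are known to control their own output through such isoforms, some of which stay in the nucleus with a detained intron, while others are degraded by nonsense-mediated decay. The deposited tables give a name, a strand, a start and an end for each transcript, but no transcript class and no exons, so the classes were not told apart here.

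MTEC1 is a mouse cell line of WT genotype that the labels call medullary thymic epithelial. The name PAMK usually stands for a polysaccharide from the medicinal plant Atractylodes macrocephala Koidz. The PAMK group held 3 total RNA libraries of cells given 50 µg/ml for 12 h, and the control group held 3 total RNA libraries of untreated cells, cultured for 6 h by the series' own text. Treatment and culture time cannot be told apart if that text is right. The labels do not say whether replicates were separate cultures; p-values therefore reflect the spread among these libraries only, and that spread may be technical. Ribosomal RNA was removed from total RNA before sequencing. Of the epithelial markers, coding rows of Aire, Krt14, Krt5 and Epcam were listed at 0 FPKM in every library. Coding rows of genes that every cell uses, such as Gapdh, were also at or near 0, so a listed 0 is not read as absence here. Whether the 0 values of the markers are failed estimates was not tested. Coding rows of Foxn1 reached at most 0.0143 FPKM with PAMK and 0.0206 FPKM in controls, and those of Krt18 at most 0.0435 and 0.0293 FPKM. Krt8 was measured in every library, at 0.151 to 0.28 FPKM with PAMK and 0.165 to 0.256 FPKM in controls. S100a4, a mesenchymal marker, lay between 350 and 391 FPKM with PAMK and between 298 and 323 FPKM in controls. Of the other mesenchymal markers, Vim had 106 to 253 and 92.5 to 143 FPKM, and Col1a1 48.2 to 57.7 and 28.3 to 37.3 FPKM. Fn1 had 15.6 to 27.6 and 4.32 to 27.4 FPKM. Coding rows of Col1a2 were uneven, at 0 to 91.2 FPKM with PAMK and 0.0143 to 81.0 FPKM in controls. FPKM are fragments scaled by transcript length and library size, and the number of fragments behind a value is unknown. In bulk RNA, fewer cells of a type and less RNA per cell cannot be told apart.

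Part of the noncoding isoforms started where coding transcripts start. Of 17322 isoforms whose gene had a RefSeq promoter window (250 bases before to 50 bases after a RefSeq start, GRCm38.p6), 4480 (25.9%) started inside such a window, against 13886 of 25454 coding transcripts (54.6%). Promoter sequences are shown for 6 splicing and ribosomal protein genes whose main noncoding isoform starts within 10 bases of a coding transcript, so that the same bases precede both kinds of RNA. The splicing gene Rbm5 also qualified, at 6 bases, but is not printed. Each run holds 60 bases before the start of the noncoding isoform in lower case and its first 20 bases in capitals, read 5′ to 3′ on the gene's strand from RefSeq, GRCm38.p6.
Srsf7 ENSMUST00000235036, chr17:80207286-80207365, minus strand: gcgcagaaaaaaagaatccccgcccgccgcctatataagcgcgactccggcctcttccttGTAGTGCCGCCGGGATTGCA
Rps21 ENSMUST00000148629, chr2:180257319-180257398, plus strand: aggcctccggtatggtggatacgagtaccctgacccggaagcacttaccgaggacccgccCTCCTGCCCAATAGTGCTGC
Srsf11 ENSMUST00000133090, chr3:158036592-158036671, minus strand: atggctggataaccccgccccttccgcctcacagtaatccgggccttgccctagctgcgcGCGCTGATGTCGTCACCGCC
Prpf31 ENSMUST00000143231, chr7:3629932-3630011, plus strand: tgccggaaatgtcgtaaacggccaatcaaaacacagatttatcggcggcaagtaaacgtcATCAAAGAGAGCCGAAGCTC
Rpl10a ENSMUST00000152665, chr17:28328526-28328605, plus strand: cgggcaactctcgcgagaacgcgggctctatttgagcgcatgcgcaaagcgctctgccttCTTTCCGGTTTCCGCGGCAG
Rps18 ENSMUST00000174620, chr17:33955634-33955713, minus strand: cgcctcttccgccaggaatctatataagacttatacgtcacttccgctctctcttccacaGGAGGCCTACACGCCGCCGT
Srsf7 and Srsf11 belong to the SR protein family of splicing factors, Prpf31 is a protein of the spliceosome, and Rps21, Rpl10a and Rps18 are ribosomal proteins. The letters TATAA, searched on both strands, occur in the printed bases of Srsf7 and Rps18, and are absent from the same run of Rbm5. They occur in 511 of the 3555 promoter windows in which a noncoding isoform started (14.4%), against 8171 of all 32851 windows (24.9%).

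Most noncoding isoforms were weakly expressed. Of the 21511, 3942 were listed at 0 in all 6 libraries, 14448 averaged at least 0.1 FPKM, 5295 at least 1 FPKM and 304 at least 10 FPKM. The share of a gene in noncoding form was taken as the FPKM of its annotated noncoding isoforms over all FPKM of that gene name, with coding rows and isoforms assembled by the authors included, computed from the mean FPKM of the 6 libraries. Because FPKM is divided by transcript length, it is closer to a share of molecules than to a share of reads. Among 6244 genes with at least 1 FPKM in all, the median share was 22.4%, with quartiles of 8.84% and 47.5%. The share was over 50% in 1462 genes (23.4%) and over 90% in 229 genes (3.67%).

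Genes with little coding RNA had the larger noncoding shares. The median share was 63.4% in 1020 genes with a coding sum under 1 FPKM, 25.2% in 3625 genes with 1 to 10 FPKM, 9.56% in 1461 genes with 10 to 100 FPKM and 5.31% in 138 genes with 100 FPKM or more. The share contains the coding sum, and genes with little coding RNA had to have noncoding RNA to reach 1 FPKM, so part of this order is built into the measure. The noncoding and coding sums themselves had a Spearman correlation of 0.22 across the 6244 genes, which share the same 6 libraries and are not independent replicates.

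**Figure D1:**
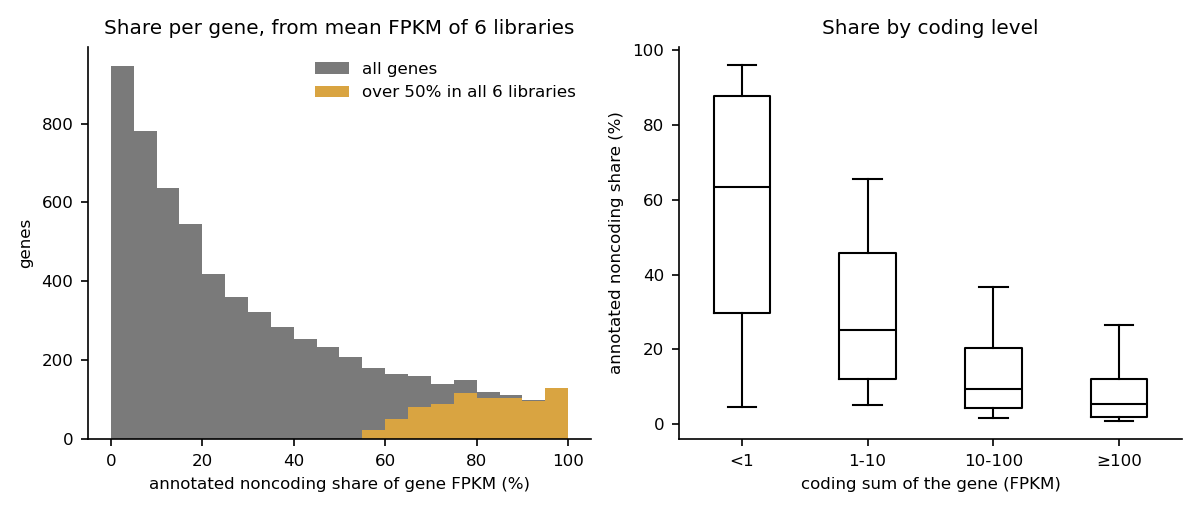
The left panel is a histogram of the annotated noncoding share of gene FPKM (%) for 6244 genes with at least 1 FPKM in all, with the 799 genes over 50% in every library in yellow. The right panel shows the same share by coding sum in FPKM, with the median as a line, the quartiles as a box and the 10th and 90th percentiles as whiskers; the median was 63.4% below 1 FPKM and 5.31% at 100 FPKM or more.

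Isoforms that share both ends with coding transcripts of their gene held more of the noncoding FPKM than their number. Each end was compared with the nearest coding end by itself, so start and end can match different coding transcripts. With an end counted as shared within 100 bases, 6715 isoforms (31.2%) shared only the 5′ end with a coding transcript of their gene, 2427 (11.3%) only the 3′ end, 1232 (5.73%) both and 11137 (51.8%) neither. Isoforms sharing both ends held 10.6% of the noncoding FPKM, those sharing only the 3′ end 17.9%, those sharing only the 5′ end 28.1% and those sharing neither 43.4%. The isoforms were short in genomic terms, with a median span of 4010 bases, or 19.7% of the span of the coding transcripts, and 93.4% lay inside that span. None lay on the opposite strand.

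The noncoding share over all of these genes overlapped between the groups. Annotated noncoding isoforms made up 22.6%, 22.9% and 23.3% of the coding and annotated noncoding FPKM of the 9163 genes in the PAMK libraries, and 24.7%, 22.3% and 22.2% in the control libraries. The groups overlapped, and control 1 stood above all others. The difference was -0.16 percentage points (exact permutation test, two-sided, p = 1, where 3 libraries against 3 allow no p below 0.1). Without control 1 the difference was 0.661 percentage points, higher with PAMK (exact permutation test, p = 0.2). Summed over isoforms, noncoding FPKM came to 26135, 26542 and 26555 in PAMK libraries and to 27094, 24814 and 25611 in control libraries, and it was 31.1% to 32.7% of the lncRNA table with PAMK and 28.9% to 32.5% in controls.

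In 799 genes (12.8% of 6244) the noncoding share exceeded 50% in every one of the 6 libraries, and these genes are called mostly noncoding here. Of them, 238 had at least 10 FPKM in all, 23 at least 50 FPKM and 10 at least 100 FPKM, against 2429, 402 and 182 of the 6244 genes at these levels. Of the 794 mostly noncoding genes found in the RefSeq gene table, all but 3 were listed there as protein coding. Coding rows summed to 0 in every library in 18 of the 799, and to at least 1 FPKM on average in 360. The strongest isoform of a mostly noncoding gene shared both ends with coding transcripts in 12.8% of genes, against 5.67% of the other genes, and shared only the 3′ end in 19.6%, against 11.1%.

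Ribosomal protein genes were among those with the largest noncoding sums. Rpl10a, a protein of the large ribosomal subunit, had 367, 346 and 371 FPKM of noncoding RNA in PAMK libraries, against 287, 298 and 351 FPKM in controls, with coding sums of 1.82 to 2.99 FPKM with PAMK and 1.48 to 3.52 FPKM in controls. Most of it came from ENSMUST00000152665, which shares both ends with coding transcripts (144 to 180 FPKM with PAMK, 114 to 180 FPKM in controls), and from ENSMUST00000143443, which shares the 5′ end (121 to 137 FPKM with PAMK, 104 to 111 FPKM in controls). Rpsa, Rps16 and Rps26, proteins of the small subunit, had noncoding shares of 43.8%, 42.7% and 50.2%, and Rpl3, of the large subunit, had 100%. Rpsa was at 45.2%, 46.5% and 41.8% with PAMK and 40.9%, 46.8% and 43.0% in controls, so the groups overlapped. A list of 51 ribosomal protein genes leaves out Rpl10a and the snoRNA hosts Rpl3, Rpl23a and Rpsa. Of these, Rpl10a, Rpl3 and Rpl23a had shares of 99.3%, 100% and 100%. In the list of 51, 40 had an annotated noncoding isoform, with a median share of 14.3%, and 4 were mostly noncoding. Of those 4, Rps18 and Rps21 had shares of 96.2% and 93.6%. Their coding sums lay at 0.568 to 5.75 and 1.96 to 7.82 FPKM with PAMK and at 0.717 to 1.01 and 0.0941 to 20.1 FPKM in controls. Ribosomal protein genes, Gapdh and the class I gene H2-K1 have near-identical copies or pseudogenes elsewhere in the genome, and how the authors' counting divided reads among them is not known, so their values are uncertain. The other genes named here were not checked for such copies, so the same limit may hold for them.

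Other genes with large noncoding sums work in iron storage, mitochondria and RNA binding. Fth1, the ferritin heavy chain, had 292, 275 and 282 FPKM of noncoding RNA with PAMK and 255, 266 and 278 FPKM in controls, a share of 74.1%. Atp5pb, a subunit of the mitochondrial ATP synthase, had a noncoding share of 85.5%, 86.8% and 87.9% with PAMK and 81.8%, 86.0% and 85.8% in controls. Prelid1, which carries phospholipid between mitochondrial membranes, had a share of 71.9%, all of it in ENSMUST00000224220. These 3 genes kept more noncoding than coding FPKM in all 6 libraries. Pabpc1, the cytoplasmic poly(A)-binding protein, did not: its share was 44.4%, 47.1% and 74.6% with PAMK and 50.0%, 64.4% and 53.2% in controls.

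Several genes that every cell uses had coding rows at or close to 0 beside abundant noncoding rows. A 0 in these files can be a failed estimate, so these genes are described only as listed. Rpl3 had 152, 165 and 205 FPKM of noncoding RNA with PAMK and 198, 211 and 177 FPKM in controls, with a coding sum of at most 0.183 FPKM with PAMK and listed at 0 in every control. Gapdh, a glycolytic enzyme used as a housekeeping standard, had a coding sum of at most 0.000249 FPKM with PAMK and 5.5e-05 FPKM in controls. Its noncoding sum was 9.72, 44.2 and 38.8 FPKM with PAMK and 4.21, 2.18 and 1.70 FPKM in controls. The Gapdh groups did not overlap, but the sum was not called (limma adjusted p = 0.505), and it was made of 2 isoforms: ENSMUST00000147954 held 44.2 and 38.7 FPKM in PAMK 2 and PAMK 3 and was listed at 0 in PAMK 1, where ENSMUST00000192506 held 9.72 FPKM. Clk1, a kinase that phosphorylates SR proteins, had 7 noncoding isoforms summing to 8.08, 8.63 and 10.7 FPKM with PAMK and 9.24, 6.91 and 6.81 FPKM in controls, while its coding row was listed at 0 in all 6 libraries. Cct6a, a subunit of the cytosolic chaperonin, had noncoding sums of 107 to 108 FPKM with PAMK and 96.2 to 113 FPKM in controls beside coding sums of 0.294 to 0.390 and 0.348 to 1.38 FPKM.

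With predicted and clone names (Gm or Rik) left out, the 12 genes with the largest shares among those with at least 5 FPKM all stood at 99.8% or more. Beside Rpl3, Clk1 and Gapdh they were Fam221b, Thbs3 (a thrombospondin of the extracellular matrix), Rpl23a, Slc38a7 (an amino acid transporter), Mrpl38 (mitochondrial ribosome), Trmt1l (a tRNA methyltransferase relative), Wdr24 (a regulator of mTORC1), Supt5 (a transcription elongation factor) and Nup43 (nuclear pore). Supt5 showed the widest noncoding range among the last 4, with 16.7, 2.19 and 17.8 FPKM with PAMK and 14.7, 14.6 and 17.3 FPKM in controls.

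Genes of RNA processing had a wide range of shares. Among SR proteins 10 of 13 had a noncoding isoform, with a median share of 19.8%, and 2 were mostly noncoding. Srsf11, whose main isoform ENSMUST00000133090 starts at the promoter printed above, had a share of 95.5%, and Srsf3 had 71.2%, with 49.1, 60.2 and 48.3 FPKM of noncoding RNA with PAMK and 60.7, 47.1 and 45.9 FPKM in controls. Srsf2 was mostly coding at 12.7%, with coding sums of 149 to 153 FPKM with PAMK and 156 to 164 FPKM in controls. Of 31 hnRNP genes, 22 had a noncoding isoform, with a median share of 26.7%. Hnrnpk, an RNA- and DNA-binding hnRNP, had 13 noncoding isoforms and the largest sum of the group, with 127, 168 and 172 FPKM with PAMK and 142, 109 and 95.1 FPKM in controls. The Hnrnpk groups overlapped, and neither its noncoding sum (limma adjusted p = 0.864) nor its coding sum (limma adjusted p = 0.770) was called. The 32 genes of the spliceosome and its helicases had a median share of 31.9%, led by Snrnp70 of the U1 particle at 97.1%, Rbm5 at 89.9% and Prpf31 at 86.6%.

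Kinases of splicing factors, genes known for detained introns and factors of nonsense-mediated decay had larger median shares than the 22.4% of all genes. Clk1 and Clk4 are counted in both of the first 2 lists. The 8 CLK and SRPK kinases with at least 1 FPKM had a median of 43.2%, with Clk1 at 100%, Clk2 at 96.3%, Clk3 at 84.3% and Clk4 at 43.0%. The 9 detained-intron genes had a median of 41.5%. They include Ogt and Oga, which add and remove O-linked N-acetylglucosamine, with shares of 40.0% and 51.7%, and Mat2a, which makes S-adenosylmethionine, with 37.5%. In Mat2a the noncoding sum was 19.8, 25 and 21.1 FPKM with PAMK and 23.1, 23.2 and 22 FPKM in controls, while its coding sum stood apart in PAMK 1, at 81.0 FPKM against 30.3 and 32.3 FPKM in the other PAMK libraries and 24.7 to 28.8 FPKM in controls. Of 15 decay factors 8 had a noncoding isoform; their median share was 55.9%, and 7 of the 8 were over 20%. Upf3a, a decay factor that binds the exon junction complex, had 95.8%, Rnps1, a protein of that complex, had 92.0%, and Smg9, a regulator of the kinase SMG1, had 87.6%.

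The remaining lists lay on both sides of the median of all genes. DNA replication genes had a median share of 37.3%, with Prim1, the small primase subunit, at 96.0% and Mcm7, of the replicative helicase, at 80.5%. Aminoacyl-tRNA synthetases had 31.9%, with Gars, Qars and Farsa at 96.6%, 95.4% and 95.2%, and coding hosts of intronic snoRNAs had 30.7%. Glycolysis genes had 17%, mitosis genes 16.4%, MHC class I presentation genes 15.1% and chaperone genes 12.7%. Single genes departed from their list: Bub1, a kinase of the spindle checkpoint, had 96.1%, and H2-K1, a class I heavy chain, had 95.9%. Noncoding sums and noncoding to coding ratios were called in 0 genes of each of the 14 lists in limma. At an unadjusted p under 0.05 in limma there were 0 to 4 genes per list for the sums and 0 to 5 for the ratios. The lists held 8 to 39 tested genes. The largest counts were 4 of 15 chaperone genes for the sums and 5 of 39 ribosomal protein genes for the ratios. Over all genes with a noncoding isoform, 411 of 5889 reached it for the sums and 364 of 5889 (6.18%) for the ratios.

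**Figure D2:**
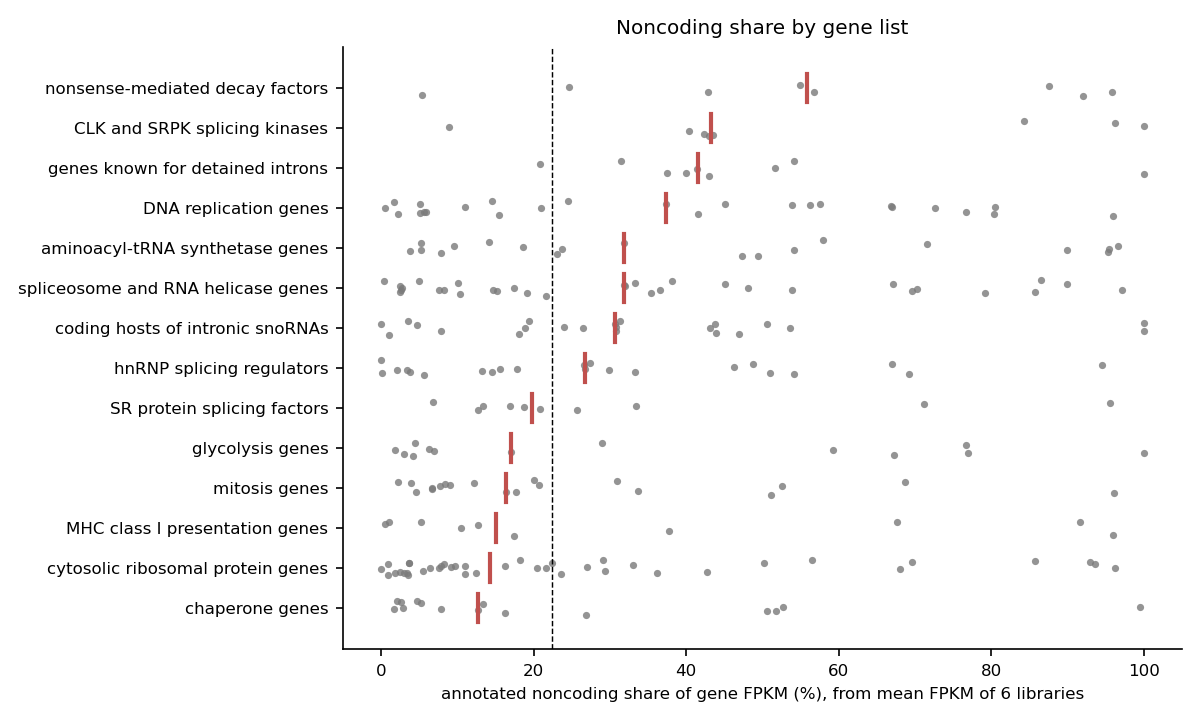
Each point is the annotated noncoding share of gene FPKM (%) of 1 gene with at least 1 FPKM in all, from mean FPKM of 6 libraries, by gene list; the red bar is the median of the list and the dashed line the 22.4% of all 6244 genes. Nonsense-mediated decay factors had the largest median at 55.9% and chaperone genes the smallest at 12.7%, with wide overlap between lists.

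The coding and noncoding parts of a gene could swap between libraries of 1 group while their total stayed close. Tpi1, the glycolytic enzyme triosephosphate isomerase, had 453, 425 and 9.02 FPKM of noncoding RNA with PAMK and 364, 515 and 515 FPKM in controls. Its coding sum was 29.4, 28.7 and 435 FPKM with PAMK and 119, 42.1 and 33.5 FPKM in controls. PAMK 3 thus stood apart in both, yet the total was 482, 454 and 451 FPKM with PAMK and 483, 557 and 548 FPKM in controls. The exchange was between the noncoding ENSMUST00000154883, at 1.17 FPKM in PAMK 3 against 444 and 417 FPKM in the other PAMK libraries, and the coding ENSMUST00000239432, at 434 FPKM in PAMK 3 against 19.4 and 21.4 FPKM.

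Rps26 did the same in a control library. Its noncoding sum was 115, 94.7 and 165 FPKM with PAMK and 142, 386 and 235 FPKM in controls, and its single coding row was 276, 278 and 198 FPKM with PAMK and 203, 0 and 172 FPKM in controls. The coding row was listed at 0 in control 2, where the noncoding sum was highest. Mrpl28, a protein of the mitochondrial ribosome chosen after its values were seen, had noncoding shares of 18.9%, 73.9% and 66.3% with PAMK and 16.2%, 27.5% and 71.0% in controls at a total of 70.9 to 77.1 FPKM over all 6 libraries. Cyfip1, a subunit of the WAVE actin-regulatory complex chosen in the same way, had shares of 55.4%, 86.7% and 29.5% with PAMK and 83.0%, 29.4% and 83.0% in controls.

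**Figure D3:**
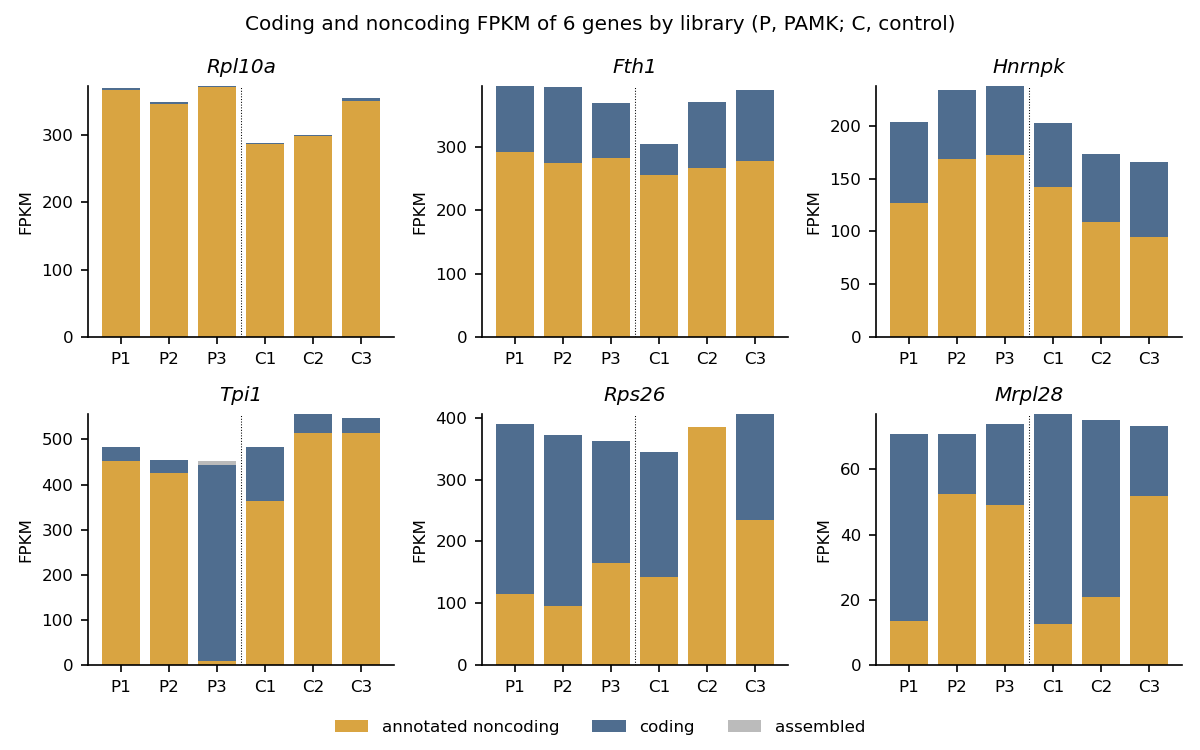
Stacked bars give the FPKM of annotated noncoding, coding and assembled transcripts of 6 genes in each library, PAMK 1 to 3 left of control 1 to 3. Rpl10a, Fth1 and Hnrnpk kept a noncoding majority in every library, while PAMK 3 of Tpi1 held 9.02 FPKM of noncoding RNA against 453 and 425 FPKM in the other PAMK libraries, and the coding part of Rps26 was listed at 0 in control 2.

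The share varied widely within a group in many genes, though the total did not stay close in all of them. Among 4075 genes with at least 5 FPKM in all, the share ranged over more than 10 percentage points within a group in 2218, over more than 50 points in 343 (8.42%; 202 within PAMK and 210 within controls) and over more than 75 points in 98. The median range within a group was 6.90 points with PAMK and 8.02 points in controls. In the 2929 genes with at least 1 FPKM in each part, the median within-group SD on the log2 scale was 0.36 for the noncoding sum, 0.34 for the coding sum and 0.22 for the total. Of these, 312 genes had a share that ranged over more than 50 points within a group. Their median SD was 0.62 for the noncoding sum, 1.82 for the coding sum and 0.70 for the total. Single noncoding isoforms at 1 to 10 FPKM varied less between libraries of a group than single coding transcripts of the same genes at that level, with a median SD of 0.40 against 0.74 on the log2 scale. At 10 to 100 FPKM the order was the other way, at 0.41 for noncoding isoforms and 0.22 for coding transcripts. The part that variation of the share within a group plays in the comparison of PAMK with control was not tested.

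Between PAMK and control cells, 6 noncoding isoforms passed the test, 4 higher and 2 lower with PAMK, out of 14448 tested (limma on log2(FPKM + 0.1), adjusted p under 0.05 over all 23670 lncRNA transcripts tested). Over all lncRNA transcripts 0.0253% were called higher and 0.0127% lower, so the isoforms were called about as often as the table they come from. At an unadjusted p under 0.05 there were 866 isoforms, or 5.99%, against 5.76% of all lncRNA transcripts. Of the 21511 isoforms, 30 (0.139%) were measured in all PAMK libraries and no control, against 0.119% of all 42870 lncRNA transcripts. There were 8 (0.0372%) measured in all controls and no PAMK library, against 0.0653% of all lncRNA transcripts.

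The isoform with the smallest p was ENSMUST00000188868 of Phip, which encodes a WD-repeat and bromodomain protein. It runs over chr9:82894031-82975408 on the minus strand in the deposited coordinates, whose build is not named. It had 9.13, 6.57 and 6.68 FPKM with PAMK and 0.0386, 0.0180 and 0.0361 FPKM in controls, a log2 fold change of 5.84 ± 0.242 (SE, limma adjusted p = 0.00183). It passed with any 1 library left out. The other 11 noncoding isoforms of Phip were not called; the next 2 in level, ENSMUST00000189927 and ENSMUST00000190838, had 1.33 to 1.86 and 1.57 to 1.73 FPKM with PAMK and 1.89 to 2.23 and 1.75 to 2.5 FPKM in controls. The coding sum of Phip was 11.0, 12.4 and 13.3 FPKM with PAMK and 14.9, 13.8 and 13.7 FPKM in controls (limma adjusted p = 0.580), and the summed noncoding RNA was 17.5, 17.5 and 17.2 FPKM with PAMK and 15.5, 11.9 and 10.2 FPKM in controls (limma adjusted p = 0.805). The rise thus lay in 1 isoform, which starts 108 bases downstream of the nearest coding start.

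The other 3 isoforms that were higher with PAMK were at or close to 0 in controls. ENSMUST00000230710 of Aaas, the nuclear pore protein aladin (chr15:102339764-102350265, minus strand), had 2.30, 2.52 and 1.60 FPKM with PAMK and was listed at 0 in every control (limma adjusted p = 0.0143). ENSMUST00000135416 of Casc4, a Golgi membrane protein gene (chr2:121867130-121906206, plus strand), had 2.35, 2.35 and 1.67 FPKM with PAMK and 0.0227, 0 and 0 FPKM in controls (limma adjusted p = 0.0143). ENSMUST00000196865 of Ankle2, which acts in nuclear envelope reassembly (chr5:110231163-110238180, plus strand), had 2.81, 1.25 and 2.93 FPKM with PAMK and was listed at 0 in every control (limma adjusted p = 0.0418). None of the 3 genes had a called coding sum. For Ankle2 the coding sum was 8.89, 0.266 and 7.02 FPKM with PAMK and 8.76, 8.71 and 8.47 FPKM in controls, where PAMK 2 stood apart. The rows behind this sum differed between the groups. The coding ENSMUST00000031474 had 8.39 to 8.61 FPKM in controls and at most 0.00758 FPKM with PAMK. The coding ENSMUST00000197188 held 8.64 FPKM in PAMK 1, and ENSMUST00000086674 held 7.02 FPKM in PAMK 3. Single coding rows were not tested. For Casc4 the coding sum was 3.41, 0.289 and 0.758 FPKM with PAMK and 3.98, 2.96 and 5.42 FPKM in controls.

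Both isoforms that were lower with PAMK belong to metabolic enzymes. ENSMUST00000172915 of Pfas, an enzyme of purine synthesis (chr11:68985700-68994276, minus strand), had 0.0533, 0.0312 and 0.0629 FPKM with PAMK and 2.38, 2.49 and 2.19 FPKM in controls, a log2 fold change of -4.05 ± 0.249 (SE, limma adjusted p = 0.0143). ENSMUST00000213729 of Idh3a, a subunit of the mitochondrial isocitrate dehydrogenase (chr9:54586510-54592340, plus strand), had 0.0298, 0.0215 and 0.0216 FPKM with PAMK and 1.48, 1.39 and 1.10 FPKM in controls, a log2 fold change of -3.51 ± 0.278 (SE, limma adjusted p = 0.0308). Pfas was a mostly noncoding gene, with a share of 97.6%, and its summed noncoding RNA was 4.25, 4.23 and 2.70 FPKM with PAMK and 5.28, 7.24 and 4.47 FPKM in controls. The coding sum of Idh3a overlapped between the groups, at 17.8 to 27.2 FPKM with PAMK and 14.5 to 25.1 FPKM in controls. Its summed noncoding RNA also overlapped, at 2.85 to 12.1 FPKM with PAMK and 3.16 to 5.01 FPKM in controls. With 1 library left out, the isoforms of Aaas, Casc4 and Pfas passed only without PAMK 1, and the Ankle2 isoform passed only without PAMK 2. The Idh3a isoform passed in none of the 6 cases (limma adjusted p from 0.0794 to 0.110).

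**Figure D4:**
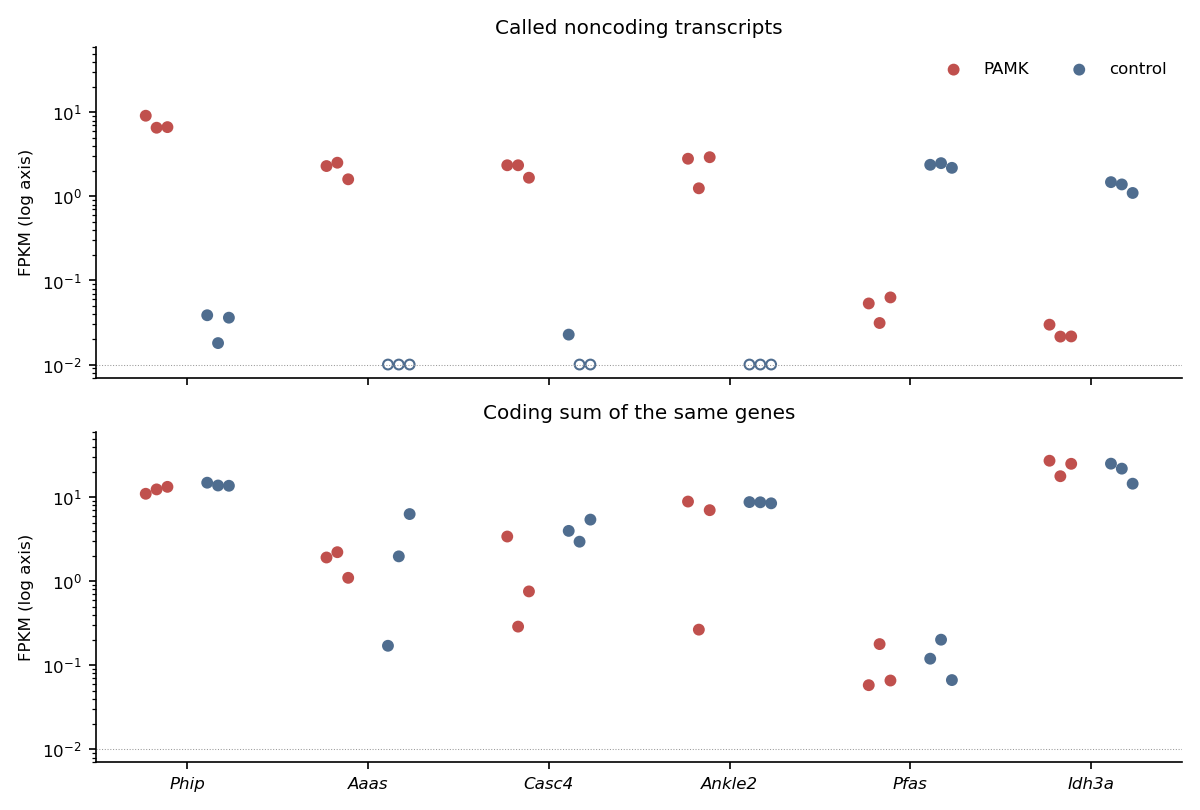
Points are single libraries, PAMK left of control for each gene, on log axes of FPKM; the upper panel shows the 6 called noncoding isoforms and the lower panel the coding sum of the same genes. Open points on the dotted line are values under 0.01 FPKM, all of which were listed at 0. The groups are apart for every isoform in the upper panel, while the coding sums overlap for Aaas, Casc4, Ankle2, Pfas and Idh3a.

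Isoforms that came near the threshold are given by their values. ENSMUST00000205207, the only noncoding isoform of Bms1, a GTPase of small ribosomal subunit assembly, had 5.99, 1.67 and 2.39 FPKM with PAMK and was listed at 0 in every control (limma adjusted p = 0.0697). The coding sum of Bms1 was 7.34, 5.23 and 5.47 FPKM with PAMK and 0.635, 0.663 and 1.17 FPKM in controls (limma adjusted p = 0.0968), so both parts of the gene were higher in every PAMK library than in any control. ENSMUST00000172916 of Pkn2, a protein kinase, had 1.72 to 2.31 FPKM with PAMK and 0.0549 to 0.205 FPKM in controls (limma adjusted p = 0.0731), beside coding sums of 39.3 to 42.1 and 40.3 to 40.9 FPKM. On the lower side, ENSMUST00000202008 of Tmem214, a membrane protein of the endoplasmic reticulum, had 0.468 to 1.42 FPKM with PAMK and 8.95 to 17.9 FPKM in controls (limma adjusted p = 0.105). ENSMUST00000154403 of Polg, the mitochondrial DNA polymerase, had 0.219 to 0.408 FPKM with PAMK and 2.52 to 4.79 FPKM in controls (limma adjusted p = 0.0778). In Tmem214 and Polg the coding sum went the other way, at 1.28 to 2.47 and 2.95 to 4.8 FPKM with PAMK against 0.386 to 0.538 and 0.942 to 2.74 FPKM in controls, with no coding sum called (limma adjusted p = 0.253 and 0.489). ENSMUST00000238082 of Fech, the last enzyme of haem synthesis, had 0.304 to 0.901 FPKM with PAMK and 9.19 to 17.5 FPKM in controls (limma adjusted p = 0.0596), and ENSMUST00000146026 of Sms, spermine synthase, had 0.240 to 0.338 FPKM with PAMK and 1.98 to 3.34 FPKM in controls (limma adjusted p = 0.0697).

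Summed over the isoforms of a gene, noncoding RNA changed in 1 gene. Of 6354 genes tested, Cul7 was called lower with PAMK and 0 were called higher (limma adjusted p under 0.05 over all 13069 sums by gene name and class), against 0.0153% of all sums called lower and 0.00765% called higher. At an unadjusted p under 0.05 there were 424, or 6.67%, against 6.16% of all sums. Cul7, a cullin that scaffolds a ubiquitin ligase, had 1.90, 2.75 and 2.28 FPKM of noncoding RNA with PAMK and 17.5, 17 and 18.6 FPKM in controls, a log2 fold change of -2.90 ± 0.187 (SE, limma adjusted p = 0.0109). The fall lay in ENSMUST00000132790 (chr17:46650572-46657070, plus strand), with 0.0130, 1.07 and 1.63 FPKM with PAMK and 17, 16.7 and 18.2 FPKM in controls, which was not called by itself (limma adjusted p = 0.492). The other isoforms of Cul7 were not lower: ENSMUST00000151002 had 0.476 to 1.52 FPKM with PAMK and 0.250 to 0.385 FPKM in controls. The coding row of Cul7 was 0, 1.00 and 0 FPKM with PAMK and 1.08, 2.85 and 1.36 FPKM in controls and was not called (limma adjusted p = 0.525). Its groups did not overlap, and its log2 fold change was -2.95 ± 1.07 (SE), close to that of the noncoding sum. The log2 ratio of noncoding to coding RNA in Cul7 differed by 0.0513 ± 0.938 (SE). With 1 library left out, the noncoding sum of Cul7 passed without PAMK 1 or PAMK 2 and missed in the other 4 cases (limma adjusted p from 0.0578 to 0.106).

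No gene's balance of noncoding to coding RNA passed the test. The log2 ratio of the noncoding to the coding sum was called by limma in 0 of 5889 genes and in 0.0% of all 8166 ratios. An unadjusted p under 0.05 was reached by 364 of the 5889, or 6.18%, against 5.95% of all ratios. The nearest was Ranbp10, which encodes a Ran-binding protein, with a share of 89.0%, 87.3% and 88.0% with PAMK and 10.3%, 3.90% and 3.55% in controls (limma adjusted p = 0.0759). Its coding sum was 0.0604, 0.0773 and 0.0614 FPKM with PAMK and 8.62, 9.03 and 9.31 FPKM in controls, while its noncoding isoform ENSMUST00000212856 had 0.490, 0.529 and 0.451 FPKM with PAMK and 0.986, 0.366 and 0.343 FPKM in controls. The ratio of Ranbp10 passed without control 1 (limma adjusted p = 0.0481).

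In Ranbp10, Mrm3, Pik3ca and Ilvbl the coding sum was called and the noncoding sum was not. Mrm3, a methyltransferase of mitochondrial ribosomal RNA, had noncoding RNA of 0.887, 0.583 and 0.935 FPKM with PAMK and 0.690, 0.365 and 0.478 FPKM in controls beside coding sums of 0.0392, 0.00796 and 0.0405 FPKM with PAMK and 3.77, 4.95 and 2.05 FPKM in controls (ratio, limma adjusted p = 0.105). Pik3ca, a catalytic subunit of phosphoinositide 3-kinase, had noncoding RNA of 0.146 to 0.235 FPKM with PAMK and 0.129 to 0.425 FPKM in controls beside coding sums of 1.34 to 2.88 FPKM with PAMK and 0.0113 to 0.0149 FPKM in controls (ratio, limma adjusted p = 0.241). Ilvbl had noncoding RNA of 0.729 to 0.992 FPKM with PAMK and 0.595 to 0.723 FPKM in controls beside coding sums of 1.56 to 2.27 FPKM with PAMK and 15.1 to 20.2 FPKM in controls (ratio, limma adjusted p = 0.119). Fancm, a DNA translocase of the Fanconi pathway, had noncoding RNA of 1.33 to 2.01 FPKM with PAMK and 3.70 to 4.68 FPKM in controls (limma adjusted p = 0.402). Its coding sum was 0.644 to 0.981 FPKM with PAMK and 0.000294 to 0.106 FPKM in controls (limma adjusted p = 0.156), and its ratio was not called (limma adjusted p = 0.241). Swap70, an actin-binding signalling protein, had noncoding RNA of 1.34 to 1.53 FPKM with PAMK and 1.16 to 3.67 FPKM in controls beside coding sums of at most 0.0380 FPKM with PAMK and 1.54 to 12.5 FPKM in controls (ratio, limma adjusted p = 0.241). Bsg, the membrane protein basigin, had noncoding RNA of 0.134 to 0.220 FPKM with PAMK and 0.440 to 0.670 FPKM in controls beside coding sums of 149 to 153 FPKM with PAMK and 88.6 to 144 FPKM in controls (ratio, limma adjusted p = 0.241). Add3, a membrane skeleton adducin, had noncoding RNA of 0.0477 to 0.117 FPKM with PAMK and 0.486 to 1.06 FPKM in controls beside coding sums of 4.48 to 4.76 FPKM with PAMK and 2.59 to 3.21 FPKM in controls (ratio, limma adjusted p = 0.241). In both genes the noncoding and coding values separated the groups in opposite directions, and neither part was called. Of the 6692 genes with a noncoding isoform whose coding sum was tested on the same scale, 3 were called higher (Rbm4, Mrpl15 and Pik3ca) and 3 lower (Ranbp10, Mrm3 and Ilvbl) with PAMK, against 0.0348% and 0.0435% of all 11497 coding sums. None of these 6 genes had a called noncoding sum. Mrpl15, of the mitochondrial ribosome, had noncoding RNA of 3.66, 3.54 and 3.92 FPKM with PAMK and 2.81, 2.28 and 2.36 FPKM in controls (limma adjusted p = 0.759), in the same direction as its coding sum, which averaged 13.9 ± 0.221 FPKM with PAMK and 7.04 ± 0.356 FPKM in controls (SD, n = 3 each; limma adjusted p = 0.0443).

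**Figure D5:**
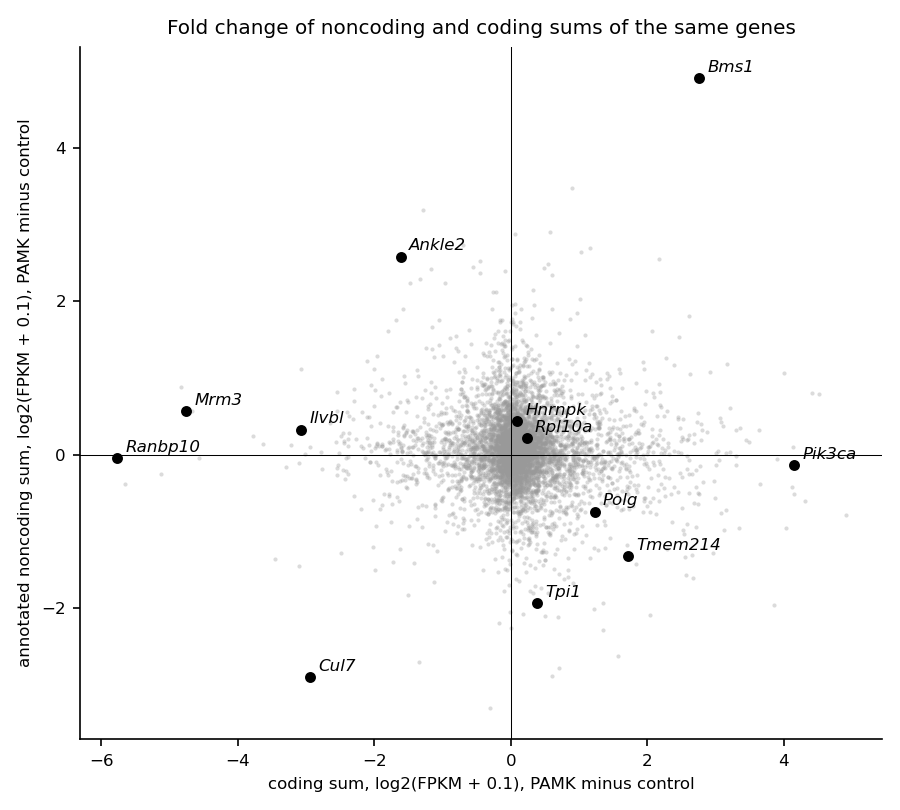
Each point is 1 of 5849 genes, with the log2 fold change of its coding sum on the horizontal axis and of its annotated noncoding sum on the vertical axis, both PAMK minus control on log2(FPKM + 0.1). Ranbp10, Mrm3, Ilvbl and Pik3ca lie far out on the coding axis and near 0 on the noncoding axis, and Cul7 lies at -2.90 on the noncoding axis and -2.95 on the coding axis.

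The share itself separated the groups about as often as in a background that is mostly the same shares. Among the 4075 genes with at least 5 FPKM, the annotated noncoding share did not overlap between PAMK and control libraries in 495 (12.1%), higher with PAMK in 241 and lower in 254, against 12.0% over all 5596 shares of annotated or assembled isoforms. The 5596 include the 4075, so these percentages are not independent. Full separation of 3 libraries from 3 in a single gene corresponds to an exact permutation p of 0.1, two-sided. The group shares differed by more than 20 percentage points in 272 genes, and in 95 of these the groups did not overlap. A cut on the group difference favours separated groups by itself, and no count at this cut was made over all shares. The 95 are therefore not read as a result. Examples chosen after their values were seen include Pole, the catalytic subunit of DNA polymerase epsilon, with 83.0%, 91.2% and 79.7% with PAMK and 45%, 19.3% and 30.0% in controls. Ncapd3, a subunit of condensin II, had 23.3%, 21.2% and 6.87% with PAMK and 76.0%, 83.3% and 68.3% in controls. Atm, the DNA damage kinase, had 18.2%, 7.66% and 33.4% with PAMK and 60%, 66.5% and 65.0% in controls. Totals of these genes were uneven. The total of Atm was 5.63 to 10.1 FPKM with PAMK and 5.37, 0.83 and 9.75 FPKM in controls. Pole had 9.69 to 13.1 FPKM with PAMK and 3.24 to 9.11 FPKM in controls. Ncapd3 had 2.62 to 10.3 FPKM with PAMK and 2.65 to 3.67 FPKM in controls. None of the 3 ratios was called (limma adjusted p = 0.261, 0.271 and 0.596).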

How the data were processed

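Total RNA of 3 PAMK and 3 control samples was analysed; the small RNA samples were not used here. The deposited values are headed normalized counts. They were taken as FPKM made by the authors, a unit inferred from the StringTie layout and from column totals that differ. HISAT2, StringTie, edgeR, cutadapt and FastQC were used, per the submitters' processing notes. For tool versions, strand and build, the sources used here give nothing. A deposited 0.0001 FPKM was read as 0, and filled 24.1% to 24.7% of the isoforms per PAMK library and 25.0% to 26.0% per control library. Deposited FPKM summed to 79925 to 88531 per library in the lncRNA table and 133684 to 145879 in the mRNA table; depth in fragments is unknown. Of 21198 gene symbols also in RefSeq GRCm38.p6, 21195 overlapped that gene by position, which is why RefSeq promoters of that build were used.

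Isoforms and sums by gene name with a mean of at least 0.1 FPKM were tested on log2(FPKM + 0.1) with limma 3.58.1 in R 4.3.3 (intensity trend, two-sided), and p-values were adjusted by Benjamini-Hochberg over the whole table at 0.05. Ratios also needed 1 FPKM in noncoding and coding sums together. Fold changes understate the change of low genes. The fit of coding sums was added after seeing the data. When a library was left out, the filter over all 6 was kept. Steps were tested on simulated data. The isoforms, gene lists and naming rules were chosen with earlier results of these data known. The naming rule took the called isoforms, filled to 6 each way by smallest p, the 12 largest noncoding sums, the 12 largest shares at a total of 5 FPKM or more, ratios filled to 4 each way, and up to 3 genes of each list by share, with some genes always named. Predicted and clone names were left out of the largest sums and shares. Replicate numbers were not used to pair the samples in the main fits.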

Additional observations from a re-analysis of the deposited data

How the results depend on the processing

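The 6 called isoforms became 2 with a pseudocount of 1 FPKM, 1 with a minimum mean of 0.5 FPKM, and 1 to 12 with 1 library left out; no filter on low values gave 4, and the other pseudocount, both scalings and no trend gave 6 or 7. All 6 kept their sign in every alternative. The 1 called noncoding sum became 2 with a pseudocount of 0.01 FPKM and 0 to 3 with 1 library left out. The 0 called ratios became 3 with a pseudocount of 0.01 FPKM, and 0 to 2 with 1 library left out. Coding rows all carry Ensembl names, so restricting the coding sum to such rows changed nothing. With the replicate number as a block, 0 isoforms, 0 sums and 0 ratios were called in limma (755, 382 and 326 at an unadjusted p under 0.05). Same-numbered libraries had deviations correlated at -0.0446, -0.00981 and -0.0507, and differently numbered libraries at -0.0018 to 0.0462. The labels do not say whether equal numbers were a pair, and these correlations cannot exclude it.

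The share of all FPKM differed by 0.125 percentage points, higher with PAMK, without the 12 genes with the largest noncoding sums, and by -0.607 (without control 3) to 0.661 points (without control 1) with 1 library left out. Mostly noncoding genes numbered 457 at a total of at least 5 FPKM, 1462 by mean share over 50% and 927 without assembled isoforms. The cause of these differences was not tested, beyond the fewer genes or samples that an alternative keeps. With depth unknown, no limit can be set for an isoform listed at 0.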
